A study of Mus musculus with 30 samples.

Results

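The primitive endoderm is the inner layer of the mouse blastocyst that later gives rise to most of the yolk sac. Names of 9 of its regulators were looked up on the arrays: the transcription factors Gata6, Gata4, Sox7, Sox17, Foxa2, Hnf4a and Foxq1, the receptor Pdgfra and the secreted Wnt enhancer Rspo3. A gene was taken where a transcript cluster, the array's unit of measurement, carried that single symbol, with the cluster of the highest mean over all 30 arrays where there were several. This found 8 of the 9 names among 30142 genes, each with 1 cluster. Pdgfra stood on a cluster that lists a second gene as well, so its level was not analysed here.

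RNA came from 30 single blastocysts of stimulated B6C3F1 and CD1 matings, with 1 blastocyst to an array. Twins made up 20 of them, from 10 embryos bisected at the 2-cell stage. In each of the 10 pairs, 1 sister grew alone in GM501 and the other alone in SAGE 1-Step, which are media for human embryos, and 10 undivided controls grew singly in KSOM(aa), a medium for mouse embryos. Embryos of the twins had spent 2 h in KSOM before bisection, per the labels. Lysis was at 4 days post coitum, after 96 h of culture, when a twin held about 40 to 50 cells and a control about 80, per the labels. Controls differ from twins in medium, bisection and cell number together, which cannot be told apart. The labels list every blastocyst separately and give no number of matings or culture days, so p-values measure the spread between these samples only. A whole blastocyst was lysed, so fewer primitive endoderm cells and less RNA per cell cannot be told apart either.

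In the inner cell mass, FGF signalling through MAP kinase favours Gata6 over the epiblast factor Nanog, and cells that keep Gata6 become primitive endoderm. Gata6 comes first, followed by Sox17, Gata4 and Sox7 in turn as the layer matures. Hnf4a and Foxa2 act in the later visceral endoderm, and the finished layer secretes laminins and collagen and takes up nutrients through cubilin and megalin.

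Among the members, RefSeq promoter windows of GRCm38.p6 were matched for Foxa2, with 3 windows, and Hnf4a, with 2. The 60 bases just before the annotated start of Hnf4a on the plus strand, chr2:163506751-163506810, are shown because they end in a GATA-type hexamer, a kind of motif that factors such as Gata4 and Gata6 bind; capitals mark it.
Hnf4a: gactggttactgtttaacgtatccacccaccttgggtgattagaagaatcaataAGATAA
On either strand, AGATAA was found in 2 of the 5 member windows and in 11.2% of 32851 promoter windows of the same length. The second GATA-type hexamer, TGATAA, was in 0 of the 5 and in 9.05% of all windows. Of the SOX-type hexamers, ACAAAG was in 1 of the 5 and in 18.7% of all, and ACAATG in 0 of the 5 and in 12.6% of all. These are matches of letters and show no binding. The printed Hnf4a hexamer begins at -52 from the start site of its promoter window. That start site lies downstream of the annotated gene start used for the printed stretch.

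Values are log2 signals, so that a difference of 1 is a doubling. Levels of different genes rest on different probes and are not compared. Background was read from 1526 odorant and vomeronasal receptor genes, which are used in olfactory tissue. A member is called near background in a group where its mean is at or under the 95th percentile of these genes' means in that group, which was 5.25 for GM501 twins, 5.24 for SAGE twins and 4.92 for controls.

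Array medians over genes set the pairs apart in ways the groups do not explain. They were 5.26 ± 0.19 in each twin group and 5.07 ± 0.028 in controls (SD, n = 10 each). In pairs 1 to 6 they lay at 5.38 ± 0.11 (SD, 12 arrays), and in pairs 7 to 10 at 5.09 ± 0.13 (SD, 8 arrays), where SAGE twin 8 stood at 5.41. The median of the receptor genes moved the same way, from 4.38 in pairs 1 to 6 to 4.05 in pairs 7 to 10 and 3.97 in controls. Comparisons with controls are therefore given with values of pairs 7 to 10 beside them. Of the markers of cumulus and oviduct cells, 8 of 9 were measured, and 2 lay above background in each twin group and 4 in controls, with a mean level per array of 4.70 to 5.45 for GM501 twins, 4.69 to 5.47 for SAGE twins and 4.67 to 4.91 for controls. Of the blood cell markers, 3 of 6 were measured and 1, Cd68, lay above background in every group.

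Gata6, Gata4, Hnf4a and Foxq1 were above background in all 3 groups. Sox7 and Foxa2 were near background in both twin groups but above it in controls, and Sox17 and Rspo3 were near background everywhere. Near-background members numbered 4 in each twin group and 2 in controls. These counts depend on a limit that is itself higher in twins, at 5.42 in pairs 1 to 6 and 4.96 in pairs 7 to 10. In pairs 7 to 10 Sox7 lay above that limit, at 5.23 in GM501 twins and 5.19 in SAGE twins. Foxa2 lay just under it there, at 4.95 and 4.87.

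**Figure D1:**
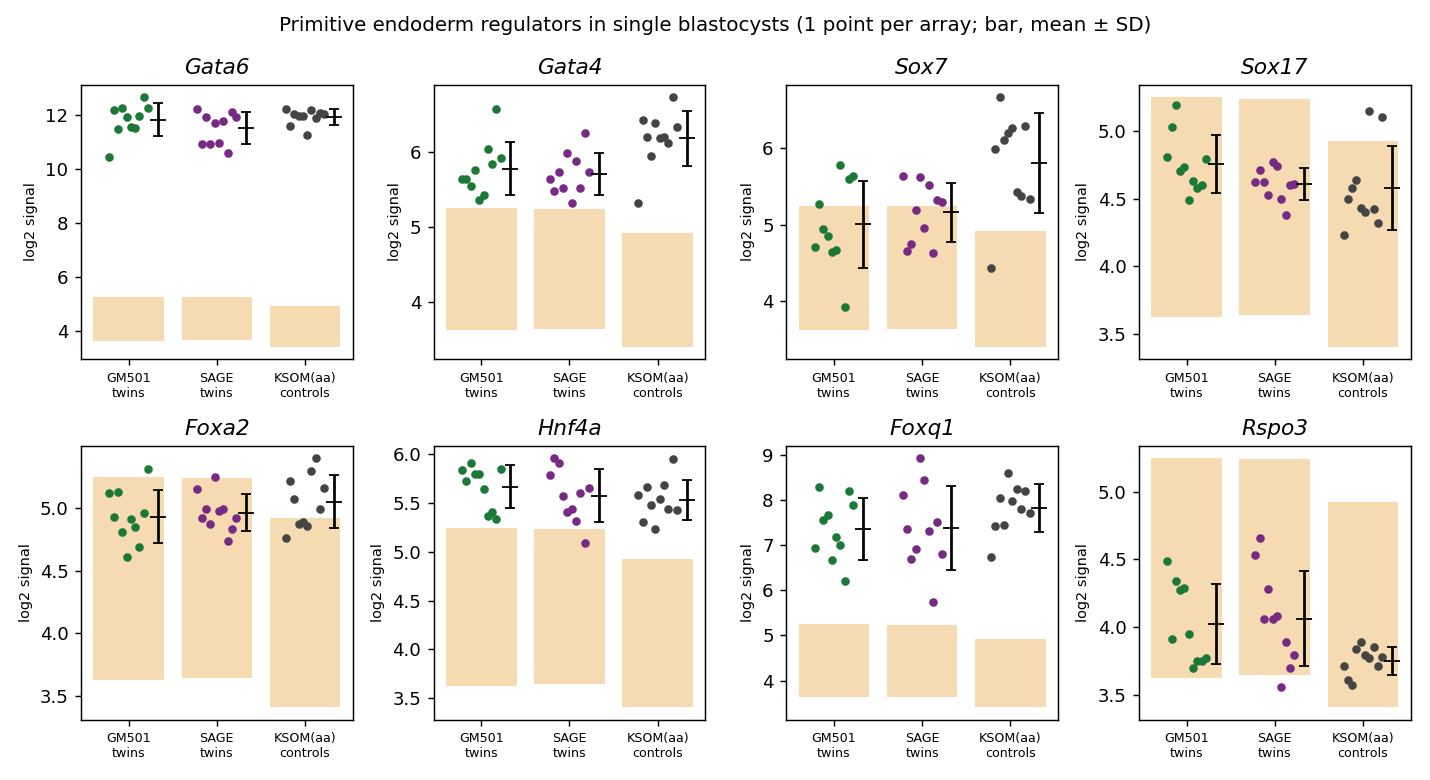
Log2 signal of the 8 measured members on every array by group, with 1 point per blastocyst and the mean ± SD as a bar (n = 10 per group); each panel has its own axis. The shaded band runs from the 5th to the 95th percentile of the receptor genes' means in that group, and Gata6 and Foxq1 lie above it on every array while Rspo3 lies inside or below it.

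Gata6 (chr18, 11052510 to 11085636, GRCm38), the factor that opens the primitive endoderm programme, was far above background in every blastocyst. GM501 twins ran from 10.45 over a median of 11.96 to 12.67, SAGE twins from 10.61 over 11.76 to 12.22, and controls from 11.27 over 12.02 to 12.23. All 10 arrays of each group stood above their own array's 95th percentile of receptor genes. The groups overlapped, with 1 GM501 twin and 4 SAGE twins below the lowest control. The means were 11.85 ± 0.62, 11.52 ± 0.60 and 11.94 ± 0.29 (SD, n = 10 each).

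Gata4 (chr14, 63198914 to 63271712), which follows Gata6 in the same programme, was lower in most twins. GM501 twins ran from 5.36 over a median of 5.70 to 6.57, SAGE twins from 5.31 over 5.68 to 6.25, and controls from 5.32 over 6.20 to 6.72. In each twin group 9 of 10 lay below the control median. The groups nevertheless overlapped through control 1, at 5.32, the next lowest control being 5.94. Above their own array's 95th percentile of receptor genes were 8 GM501 twins, 7 SAGE twins and all 10 controls. Some twins thus give an upper bound on Gata4, and the folds given for it below include them. The means were 5.77 ± 0.35, 5.70 ± 0.28 and 6.18 ± 0.37 (SD, n = 10 each).

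Sox7 (chr14, 63943706 to 63950732), a late marker of the layer, had the largest difference of means between twins and controls among the members. GM501 twins ran from 3.92 over a median of 4.90 to 5.78, SAGE twins from 4.63 over 5.24 to 5.64, and controls from 4.43 over 6.04 to 6.66. All 10 GM501 twins and all 10 SAGE twins lay below the control median. Control 1 was again the lowest control, at 4.43, and the other 9 began at 5.34. Above their own array's 95th percentile of receptor genes were 3 GM501 twins, 5 SAGE twins and 9 controls, so most GM501 twins give an upper bound on Sox7 rather than a level. The means were 5.00 ± 0.57, 5.16 ± 0.39 and 5.81 ± 0.66 (SD, n = 10 each).

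Foxq1 (chr13, 31558170 to 31560976), a forkhead factor, had the largest SD of the members within each twin group. GM501 twins ran from 6.20 over a median of 7.38 to 8.29, SAGE twins from 5.75 over 7.33 to 8.93, and controls from 6.74 over 7.90 to 8.61. The groups overlapped over nearly their whole range, though 7 of 10 twins in each medium lay below the control median. The means were 7.36 ± 0.68, 7.38 ± 0.93 and 7.82 ± 0.53 (SD, n = 10 each).

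Hnf4a (chr2, 163506811 to 163572907), a nuclear receptor of the visceral endoderm, had means of 5.67 ± 0.22 for GM501 twins, 5.57 ± 0.27 for SAGE twins and 5.53 ± 0.20 for controls (SD, n = 10 each). It spanned 5.34 to 5.91, 5.09 to 5.96 and 5.23 to 5.95 in the same order, so that the 3 ranges nearly coincided. Foxa2 (chr2, 148042877 to 148046969), a pioneer factor of endoderm, had means of 4.93 ± 0.21, 4.96 ± 0.15 and 5.05 ± 0.21 and exceeded its own array's receptor percentile in 2 GM501 twins, 3 SAGE twins and 6 controls. It was at the edge of detection even where its mean passed.

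Sox17 (chr1, 4490928 to 4497426), which acts between Gata6 and Gata4, was near background in all groups, at 4.76 ± 0.21 for GM501 twins, 4.61 ± 0.12 for SAGE twins and 4.58 ± 0.31 for controls (SD, n = 10 each). Its only arrays above their own receptor percentile were 2 controls, control 7 at 5.15 and control 10 at 5.10. Both stood clear of the other 8 controls, the highest of which was 4.64. Rspo3 (chr10, 29453106 to 29535867), a secreted enhancer of Wnt signalling, passed that percentile on 0 of 30 arrays. Its means were 4.02 ± 0.30, 4.06 ± 0.35 and 3.75 ± 0.10, and about a like share of receptor genes lay below it in each group, 30.5%, 33.4% and 29.2%.

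The first comparison asked whether the medium changed the regulators within pairs of sisters. It called 0 of the 6 members tested, those whose mean passed a filter for the upper 60% of genes, and the background share of genes called was 0%. Over all 18087 genes tested, limma with Benjamini-Hochberg adjustment called none, while 695 had an unadjusted p under 0.05. Gata6 was higher in the GM501 sister in 7 of 10 pairs, Gata4 in 8, Foxq1 in 6 and Sox7 in 5. The differences, GM501 minus SAGE, were 0.33 ± 0.28 for Gata6 (95% confidence interval -0.27 to 0.93), 0.07 ± 0.10 for Gata4 (-0.16 to 0.29), -0.16 ± 0.17 for Sox7 (-0.53 to 0.22) and -0.02 ± 0.33 for Foxq1 (-0.73 to 0.69), all log2 ± SE. Foxa2 differed by -0.03 ± 0.099 and Hnf4a by 0.10 ± 0.087. The adjusted p was 1 for each member. The intervals of Gata6 and Foxq1 reach 0.93 and 0.69, so equal levels in both media are not shown.

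Sisters could differ widely. The largest gap between co-twins was 1.77 for Gata6, in pair 1, where the GM501 twin was the lower, and 2.26 for Foxq1, in pair 5. The median gap was 0.58 for Gata6, 0.91 for Foxq1, 0.34 for Sox7 and 0.19 for Gata4. In Gata6, 3 pairs (2, 4 and 8) had the GM501 twin higher by 1.29, 1.37 and 1.36, against the opposite gap of pair 1. In pairs 1, 2 and 8 the sister lower in Gata6 had the higher array median. These medians were 5.56 against 5.39, 5.55 against 5.40 and 5.41 against 5.07. In pair 4 it had the lower one, 5.40 against 5.45. The part of the array medians in these gaps was not tested. The difference between media did not itself differ between pairs 1 to 6 and 7 to 10 beyond the spread, with 0 genes called and adjusted p of 0.707 to 0.969 for the 6 members.

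**Figure D2:**
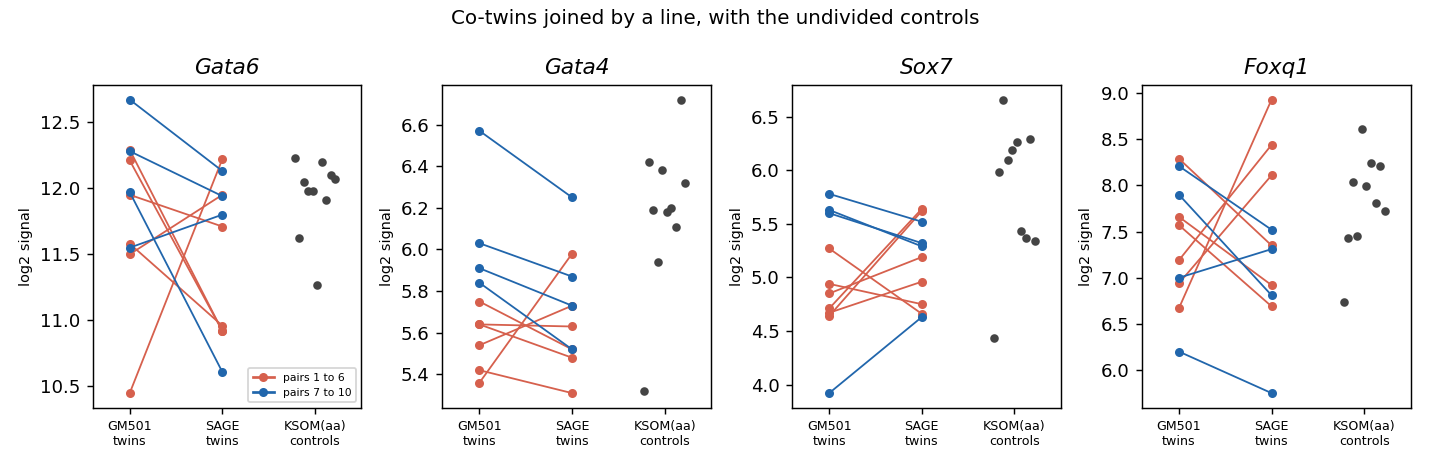
Log2 signal of Gata6, Gata4, Sox7 and Foxq1 in the GM501 and SAGE sisters of each pair, joined by a line, with the 10 controls as separate points; colours mark pairs 1 to 6 and pairs 7 to 10. Lines cross in every panel, and all twin points of Sox7 lie below the control median of 6.04.

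Co-twins were also tested for likeness by limma's F test over embryo of origin, with medium in the model. It called 0 of the 6 members, against 26.4% of all genes. Within pairs 1 to 6 alone it called 0.243% of all genes, and within pairs 7 to 10 alone 0.0663%, with fewer pairs in each. Over all pairs, embryo of origin includes the split in array medians, so 26.4% is not a measure of co-twin likeness alone. Gata4 had F = 2.97 (adjusted p = 0.103), Hnf4a 2.67 (0.127) and Sox7 2.15 (0.193), while Gata6 had 0.695 (0.747), Foxa2 0.663 (0.768) and Foxq1 1.22 (0.457). A likeness of co-twins in Gata6 was not detectable with 10 pairs. With arrays centred on their medians, Gata4 was called, where 22.7% of all genes were called.

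GM501 twins were then compared with controls. Sox7 fell by 0.80 ± 0.26 on the log2 scale (SE; limma adjusted p = 0.0463) and was the 1 member of 6 called, where 13.8% of all genes were called, 6.97% lower and 6.81% higher. No fold is given for Sox7, since its mean in GM501 twins was near background and the difference is one of signal. Gata4 differed by -0.41 ± 0.16 (adjusted p = 0.0786), Foxq1 by -0.46 ± 0.26 (0.188) and Gata6 by -0.10 ± 0.21 (0.742). Hnf4a, at 0.14 ± 0.10 (0.320), and Foxa2, at -0.12 ± 0.10 (0.392), were nearest to the control level with Gata6. In pairs 7 to 10 no member was called, beside 1.32% of all genes. Sox7 differed by -0.57 ± 0.39 (0.538) and Gata4 by -0.09 ± 0.20 (0.886).

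The Sox7 call was narrow. Leaving out each of the 20 arrays in turn kept it in 6 cases, without GM501 twin 7, 8, 9 or 10 or control 1 or 8, and lost it without any of the other arrays, with adjusted p from 0.0213 to 0.0780 and a difference from -0.96 to -0.68. Its sign was the same in all 20.

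SAGE twins against controls gave Gata4 as the 1 member of 6 called, where 16.1% of all genes were called, 8.64% lower and 7.49% higher. Gata4 fell by 0.48 ± 0.15 (SE; 1.39-fold; limma adjusted p = 0.0352). Sox7 differed by -0.65 ± 0.23 (0.0563), Gata6 by -0.43 ± 0.20 (0.126) and Foxq1 by -0.44 ± 0.32 (0.295), while Foxa2, at -0.09 ± 0.096 (0.492), and Hnf4a, at 0.04 ± 0.11 (0.786), were near the control level. In pairs 7 to 10 no member was called, beside 0.813% of all genes, and Gata4 differed by -0.34 ± 0.20 (0.441), Sox7 by -0.62 ± 0.33 (0.369) and Foxq1 by -0.98 ± 0.33 (0.145).

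Gata4 kept its call in 8 of the 20 runs without 1 array, those without SAGE twin 5, 7, 8, 9 or 10 or control 1, 4 or 8, with adjusted p from 0.0109 to 0.0649. Both comparisons use the same 10 controls, among them control 1, so a like result in the second medium is no separate evidence.

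Pair means, which count each embryo once, were lower than controls for both genes. Gata4 fell by 0.44 ± 0.14 (SE; 1.36-fold; limma adjusted p = 0.0338) and Sox7 by 0.73 ± 0.23 (0.0303), 2 members of 6, where 25.6% of all genes were called, 11.4% lower and 14.2% higher. Gata6 differed by -0.26 ± 0.15 (0.163) and Foxq1 by -0.45 ± 0.23 (0.134). Without 1 pair or control, Gata4 kept its call in 11 of 20 runs and Sox7 in 14 of 20. The call was lost without pair 2, 3, 4 or 6 or control 9 for both genes, without pair 1 or control 2, 5 or 10 for Gata4 alone, and without control 3 for Sox7 alone.

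In pairs 7 to 10, pair means of Gata4 differed from controls by -0.21 ± 0.20 (limma adjusted p = 0.743) and those of Sox7 by -0.59 ± 0.35 (0.523), and 0 members were called, beside 0.730% of all genes. In pairs 1 to 6, Gata4 was at 5.56 ± 0.15 in GM501 twins and 5.61 ± 0.23 in SAGE twins (SD, n = 6 each), against 6.09 ± 0.33 and 5.84 ± 0.31 in pairs 7 to 10 (SD, n = 4 each). Gata4 was thus farther below controls in the pairs whose array medians were high; the difference between the sets was not tested. Sox7 stood at 4.85 ± 0.24 and 5.14 ± 0.42 in pairs 1 to 6 and at 5.23 ± 0.88 and 5.19 ± 0.39 in pairs 7 to 10. Sox7 differed from controls by -0.96 in the first set and -0.57 in the second among GM501 twins, and by -0.67 and -0.62 among SAGE twins. The part that the array medians have in either result was not tested.

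Rspo3 and Sox17 lay below the filter, and their values come from a fit over all 30142 genes. Rspo3 differed from controls by 0.27 ± 0.10 in GM501 twins (limma adjusted p = 0.0587), 0.31 ± 0.12 in SAGE twins (0.0525) and 0.29 ± 0.099 in pair means (0.0303). In pairs 7 to 10 these were -0.01 ± 0.063, -0.02 ± 0.082 and -0.01 ± 0.0686. The higher values in pairs 1 to 6, at 4.21 ± 0.23 and 4.28 ± 0.26 (SD, n = 6 each), moved together with the receptor genes' median, and Rspo3 was near background throughout. Sox17 differed by 0.18 ± 0.12 in GM501 twins (0.229) and 0.03 ± 0.11 in SAGE twins (0.820).

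**Figure D3:**
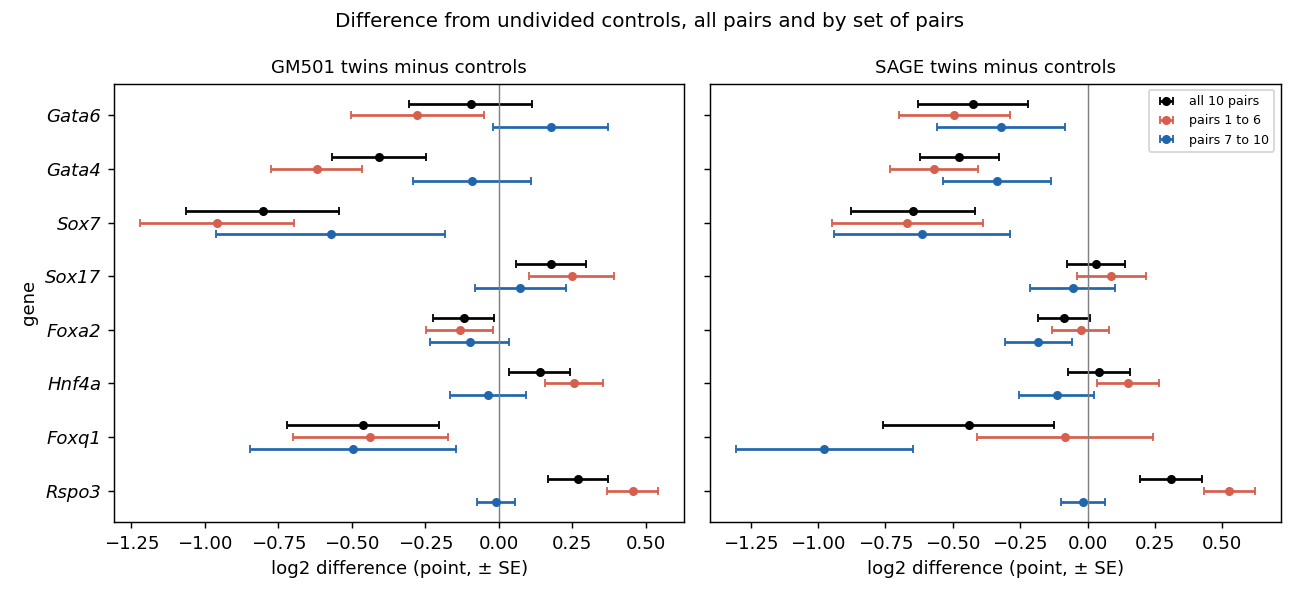
Log2 difference of each member from the 10 controls (point) with its SE (bar), for GM501 twins on the left and SAGE twins on the right, from all 10 pairs, pairs 1 to 6 and pairs 7 to 10. Sox7 lies below 0 in every case, Gata4 lies nearer to 0 in pairs 7 to 10 than in pairs 1 to 6, and Rspo3 is above 0 in pairs 1 to 6 but at about 0 in pairs 7 to 10.

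The comparisons were repeated under other scalings. The median difference of all genes from controls was 0.11 in both twin groups as deposited, -0.07 and -0.08 with arrays centred on their medians, and 0.02 and 0.03 after quantile normalization. Among called genes the share that was higher in GM501 twins was 49.4% as deposited, 16.8% centred and 39.0% after quantile normalization. For SAGE twins it was 46.5%, 13.98% and 38.9%, and for pair means 55.4%, 18.7% and 43.2%. Gata4 and Sox7 were lower than controls under each, and both were called in both media once arrays were centred or quantile normalized. Hnf4a turned from slightly higher to slightly lower under both, and was not called in either.

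Single blastocysts were next compared for spread. Gata6 had an SD of 0.62 in GM501 twins and 0.60 in SAGE twins against 0.29 in controls. The mean distance to the group median differed by 0.25 and 0.30 (two-sided permutation p = 0.111 and 0.0451, adjusted over 16 tests 0.376 and 0.240). Rspo3 had SDs of 0.30 and 0.35 against 0.10 (p = 0.00923 and 0.0224 by permutation, adjusted 0.148 and 0.179). It was near background, and its SDs were 0.030 and 0.14 within pairs 7 to 10 and 0.23 and 0.26 within pairs 1 to 6. For Gata6 these were 0.47 and 0.69, and 0.68 and 0.59. The tests pool both sets of pairs, so a shift between the sets counts as spread. None of the 16 tests passed after adjustment. For Gata4, Sox7 and Hnf4a the adjusted permutation p was 0.584 or more, and in Sox7 the larger SD was that of the controls, 0.66.

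The undivided controls were used to ask whether the regulators vary together from 1 embryo to the next. Of 21 relations, none passed adjustment. Gata4 and Sox7 had Pearson's r = 0.67 (permutation p = 0.0407, adjusted 0.359) and Spearman's rho = 0.37 (p = 0.296, adjusted 0.912), and r was -0.04 without the 2 controls farthest from the median of Gata4. Gata4 and Foxq1 had r = 0.74 (permutation p = 0.0207, adjusted 0.359) and rho = 0.47 (p = 0.178, adjusted 0.912), with r = 0.28 without the 2 farthest. Both relations rest on those samples, among them control 1, which was the lowest control for Gata4, Sox7, Foxq1, Foxa2 and Sox17 and the highest for Gata6 and Nanog.

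Gata6 and Nanog, the factors that oppose each other in the choice between primitive endoderm and epiblast, showed no detectable inverse relation between whole control blastocysts. A whole lysate sums the cells of both lineages, so this relation cannot show or refute the opposition within cells. For Gata6 and Nanog, r was -0.17 (permutation p = 0.657, adjusted 0.868) and rho was 0.06 (p = 0.870, adjusted 0.912), and r was 0.42 without the 2 farthest controls. Nanog had means of 12.95 ± 1.54 for GM501 twins, 12.45 ± 0.87 for SAGE twins and 13.99 ± 0.79 for controls (SD, n = 10 each). It fell by 1.54 ± 0.35 in SAGE twins (SE; limma adjusted p = 0.0122) and differed by -1.04 ± 0.51 in GM501 twins (0.138). In GM501 twins Nanog stood at 12.09 ± 1.40 in pairs 1 to 6 (SD, n = 6) but at 14.24 ± 0.39 in pairs 7 to 10 (SD, n = 4), above the control mean, while SAGE twins stood at 12.56 ± 0.77 and 12.29 ± 1.10.

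**Figure D4:**
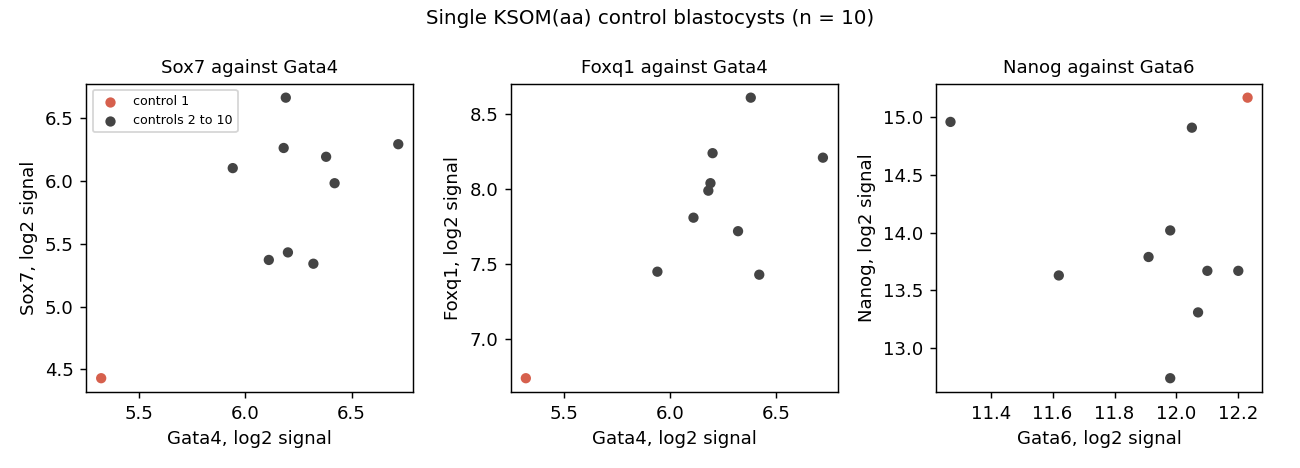
Log2 signals of Sox7 against Gata4, Foxq1 against Gata4 and Nanog against Gata6 in the 10 undivided controls, 1 point per blastocyst, with control 1 in colour. Control 1 lies alone at low Gata4, Sox7 and Foxq1 and at the highest Gata6 and Nanog.

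The genes with the profile most like each member over the 10 controls, among 11267 ranked genes, are given as a description. For Gata6 they were Baz1a and Slc3a1 (r = 0.93 each), for Gata4 Hsp90b1 (0.95) and Vmn1r222 (0.94), and for Sox7 Pkm (0.93) and Wdr70 (0.91). For Foxq1 they were Rexo2 (0.93) and S100a7l2 (0.91), for Hnf4a Map6 and Ndufaf4 (0.91 each), and for Foxa2 Man2a1 and Panx1 (0.89 each). These are the highest of 11267 ranked values of r over only 10 arrays. Vmn1r222, a vomeronasal receptor at 3.86 to 4.81, shows that background signal reaches such values too.

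Several products of the layer, such as laminins and cubilin, fell in twins of both media. The list counts that follow stand beside 6.97% of all genes called lower in GM501 twins and 8.64% in SAGE twins. Of 16 primitive endoderm effectors, 15 passed the filter. In GM501 twins 8 fell and 0 rose against controls, with a median of -0.60 beside 0.11 over all genes, and in SAGE twins 8 fell and 0 rose, with a median of -0.56. Lama1, a laminin chain of the basement membrane, fell by 2.65 ± 0.56 in GM501 twins (SE; limma adjusted p = 0.00964) and fell by 2.61 ± 0.53 in SAGE twins (0.00855). Cubn, the endocytic receptor cubilin, fell by 2.91 ± 0.68 (0.0150) and fell by 2.85 ± 0.66 (0.0129). Aqp8, a water channel, fell by 1.24 ± 0.29 in GM501 twins (0.0148) and fell by 1.21 ± 0.40 in SAGE twins (0.0435). Lamc1, a further laminin chain, fell by 2.22 ± 0.64 in GM501 twins (0.0308) and fell by 2.38 ± 0.53 in SAGE twins (0.0110). Pairs 7 to 10 had 0 effectors called, with medians of -0.20 and -0.32. A list of 12 trophectoderm genes had medians of -0.63 and -0.55 over all pairs and -0.31 and -0.22 in pairs 7 to 10. A median fall of this size was thus not particular to the effectors. Among called trophectoderm genes the largest fall was that of Krt8, by 0.89 in GM501 twins and 1.11 in SAGE twins.

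Of 20 FGF and MAP kinase genes, 16 passed the filter, and 3 fell in GM501 twins and 2 in SAGE twins, where 13.8% and 16.1% of all genes were called in either direction. Fgfr2, an FGF receptor, fell by 1.18 ± 0.36 in GM501 twins (SE; limma adjusted p = 0.0391), the kinase Map2k1 fell by 0.73 ± 0.23 (0.0432) and Dusp6, a phosphatase induced by the pathway, fell by 1.93 ± 0.63 (0.0464). In SAGE twins the adaptor Shc1 fell by 0.77 ± 0.23 (0.0323) and Dusp6 fell by 2.01 ± 0.60 (0.0327), and 0 genes of the list rose in either medium. The list had 0 calls in pairs 7 to 10, and its median in GM501 twins turned from -0.18 to 0.19, while in SAGE twins it went from -0.37 to -0.04. Sall4, a zinc finger factor of the inner cell mass, fell by 1.47 ± 0.39 in GM501 twins (0.0232) and fell by 1.69 ± 0.40 in SAGE twins (0.0146). Eomes, a T-box factor, fell by 0.74 ± 0.23 (0.0377) and fell by 0.81 ± 0.26 (0.0394). They were 2 of the 3 other endoderm factors that passed the filter of 9 listed. Sall4 is also in the epiblast list and Eomes in the trophectoderm list, so their calls are counted again there and are not separate evidence. In Wnt and R-spondin signalling, where Rspo3 belongs, 1 of 5 fell in each, the co-receptor Lrp5, which fell by 0.87 ± 0.21 (0.0163) and fell by 1.15 ± 0.22 (0.00712). Visceral endoderm products, with 3 of 10 above the filter, and PDGF genes, with 1 of 4, had 0 called. The other endoderm factors and the Wnt genes had 0 calls in pairs 7 to 10 too, with medians of -0.31 and 0.48 in GM501 twins and -0.37 and 0.05 in SAGE twins.

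Calls were also made among genes of the other lineages. Of 12 trophectoderm genes, 9 fell in GM501 twins and 7 in SAGE twins, and 0 rose. Of 15 epiblast genes, 3 fell and 1 rose in GM501 twins, and 8 fell and 0 rose in SAGE twins, with medians of -0.30 and -0.67. Gata2 of the trophectoderm fell by 0.70 ± 0.11 in GM501 twins (SE, limma adjusted p = 0.00139). Gata2 also fell by 0.61 ± 0.14 in SAGE twins (0.0130). Zfp42 of the epiblast fell by 1.22 ± 0.30 in GM501 twins (0.0188) and fell by 1.58 ± 0.27 in SAGE twins (0.00450). In pairs 7 to 10 these lists had 1 call in all, a trophectoderm gene lower in GM501 twins, and the epiblast median there was 0.06 in GM501 twins and -0.62 in SAGE twins. The cumulus gene Tnfaip6 was 0.34 ± 0.11 higher in SAGE twins (0.0368), 1 of the 5 cumulus and oviduct genes that passed the filter, and the part of other cells in these results was not tested.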

How the data were processed

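The authors deposited log2 signals of 65956 transcript clusters per array, made with RMA in Affymetrix Expression Console on mm10, per the submitters' processing notes, with versions not given in the sources used here. RNA was amplified with a GeneChip WT Pico kit, per the labels' protocols. No label states the log base, which was taken from RMA's usual scale. Of 32750 clusters with a listed gene, 30604 carried 1 symbol, 827 of them updated by gene ID, and the 2146 with several were left out. The members and lists were chosen with earlier results of these data known, as were pairs 1 to 6 and 7 to 10.

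Genes in the upper 60% by mean (18087, means of at least 4.80) were fitted with limma 3.58.1 in R 4.3.3 (lmFit, eBayes, two-sided, Benjamini-Hochberg adjustment, call under 0.05). The pair was a block between media, and each twin group and the pair means were set against controls, with an F test for embryo of origin. Pairs come from the labels: partners' deviations from their group means correlated at 0.163 to 0.696 over these genes. Spread and relations used permutation tests (100000 resamples, SciPy 1.17.1). The fit was tested on simulated data with independent noise. The simulated data held no split in array medians, so that test does not cover the split seen here. All 9 members were named whatever their values, with Nanog, up to 3 called genes per list and comparison by smallest p, of which some are given here, and the 2 genes most like each member in controls. Alternatives were other filters and scalings, trend and robust fitting, array weights, sets of pairs, the replicate block and, added after the data were seen, leaving out arrays. The number of arrays limits precision.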

Additional observations from a re-analysis of the deposited data

Results flagged for a closer look

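Gata6 in GM501 twins had 1 array far below the others: twin 1 stood at 10.45, and the next lowest twin at 11.50, a gap of 0.473 of the group's whole range against a 95% critical value of 0.466 for 10 samples. Of 24 groups of member values tested this way, it was the only one past the limit, and chance alone gives about 1 in 20. Nanog was lowest in the same blastocyst, at 10.12. The median of this array, 5.56, was the highest of the 30 arrays, and its part in the low value was not tested. Without this array the GM501 twins' difference from controls in Gata6 was 0.06 in place of -0.10, and it was not called in either.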

How the results depend on the processing

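Counts of members called changed with the settings. For GM501 twins against controls, with 1 call, the count was 0 with the upper 40% of genes, which leaves Sox7 out, and 0 in pairs 7 to 10. It was 2 with centred arrays, 2 after quantile normalization, 2 with array weights and 3 in pairs 1 to 6, where the last 2 settings called 43.7% and 59.4% of all genes. In pairs 1 to 6 the member called besides Gata4 and Sox7 was Hnf4a. It was higher in GM501 twins than in controls, by 0.26 ± 0.099 (SE, limma adjusted p = 0.0339). For SAGE twins, with 1 call, it was 0 in pairs 7 to 10 and 2 with no filter, centring, quantile normalization, trend and robust fitting, array weights or pairs 1 to 6, the last 2 with 49.1% and 58.8% of all genes called. For pair means, with 2 calls, it was 1 with the upper 40% and 0 in pairs 7 to 10. It was 3 with no filter, centring, quantile normalization, array weights or pairs 1 to 6. The last 2 settings called 59.7% and 64.1% of all genes. In pair means Foxa2 was called in 2 of 9 alternatives and Gata6 in 2 of 10. With no filter the added member was Rspo3, which was higher in twins. For embryo of origin it was 1 with centring. Leaving out 1 array or pair gave 0 to 2 calls for GM501 twins, 0 to 2 for SAGE twins, 0 to 3 for pair means, with Gata6 as the added gene, and 0 to 1 for embryo of origin. Members near background numbered 1 in each group at the receptor median and, at their 99th percentile, 6 in each twin group, with Gata4 and Hnf4a added, and 4 in controls. With distance to the group mean, 2 spreads passed adjustment, Rspo3 in GM501 and Gata6 in SAGE twins. Without the replicate block, which the labels' pairing supplies, the media comparison still called 0 members.

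Signs turned for these differences, none of them called as reported or under the alternative except Rspo3 in pair means, called in the fit over all genes. Between media these were Foxq1 at 0.0108 with quantile normalization and 0.48 in pairs 7 to 10, Rspo3 at 0.0085 with array weights and 0.0075 in pairs 7 to 10, Sox7 at 0.0425 and Foxa2 at 0.0825 in pairs 7 to 10, and Gata4 at -0.05 in pairs 1 to 6. In GM501 twins against controls they were Sox17 at -0.007 centred and -0.0359 quantile normalized, Hnf4a at -0.046 and -0.00522, and in pairs 7 to 10 Gata6 at 0.18, Hnf4a at -0.0375 and Rspo3 at -0.0095. In SAGE twins they were Sox17 at -0.16 and -0.19, Hnf4a at -0.15 and -0.0918, and in pairs 7 to 10 Sox17 at -0.0545, Hnf4a at -0.12 and Rspo3 at -0.017. In pair means they were Sox17 at -0.083 and -0.11, Hnf4a at -0.10 and -0.0485, and in pairs 7 to 10 Hnf4a at -0.0763 and Rspo3 at -0.0133. Without 1 array or pair, media differences ran from -0.14 to 0.23 for Foxq1, -0.0744 to 0.04 for Rspo3 and -0.0789 to 0.0356 for Foxa2, Gata6 in GM501 twins from -0.19 to 0.059 and Sox17 in SAGE twins from -0.00756 to 0.0947. The causes were not tested. Members near background give bounds, not levels.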
